A study of Mus musculus with 14 samples.

Results

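The 10 genes described here encode proteins that take part in calcium release, uptake or storage by the sarcoplasmic reticulum of skeletal muscle, or regulate these. They are Ryr1, Stac3, Trdn, Casq1, Casq2, Jph1, Jph2, Atp2a1, Sln and Stim1. They were chosen by gene symbol, and all 10 were found among the 54532 genes of the count table and among the 15458 genes that passed the filter on low counts. RNA-seq was carried out on skeletal muscle of male FVB/N mice in 14 libraries, to ask how endothelial c-Myc and a western diet act on muscle. EC-Myc OE mice carried Tet-O-Myc together with a tTA driven by the endothelial Cdh5 promoter, and CT littermates carried Tet-O-Myc without the tTA. The transgene was switched on at 4 to 6 weeks of age by taking the mice off doxycycline diet, and the mice received control diet (CTD) or western diet (WD), by the labels for 20 weeks. The study's text gives another duration for the diet of the sequenced muscle, so the length of exposure is not settled here. By the labels, 3 libraries were CT on control diet (CT-CTD), 3 were CT on western diet (CT-WD), and the EC-Myc OE mice gave 4 libraries from control diet (OE-CTD) and 4 from western diet (OE-WD). The transgene acts in endothelial cells, whereas the 10 genes are mainly genes of muscle fibres, and the labels do not say whether a library came from soleus or gastrocnemius. The sample descriptions share a number in 4 of the 4 OE-WD libraries and in 3 of the 4 OE-CTD libraries, and the labels do not say what it marks. The characters before the number differ among the libraries of a group that share it, and their meaning is not given either. If the number marked an animal, the 4 OE-WD libraries would come from 1 animal and 3 of the 4 OE-CTD libraries from another. If it marked something that several animals share, they could come from separate animals. The numbers of the 6 CT libraries all differ. Each n, SD and p-value here therefore counts libraries and not animals, and the spread between libraries may be in part technical. The study's text gives the group sizes by diet where the labels give them by genotype. If the names CT-WD and OE-CTD were exchanged, the diet comparisons and the genotype comparisons would trade places and the interaction would keep its values.

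In a muscle fibre, depolarization is sensed by the voltage sensor of the transverse tubule, which opens the ryanodine receptor of the neighbouring sarcoplasmic reticulum and lets calcium flow to the myofilaments. Junctophilins hold both membranes together at the triad, and calsequestrin, anchored by triadin, binds calcium inside the store. A calcium ATPase then pumps calcium back, and slow and fast fibres differ in the isoforms of pump and buffer that they use.

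Counted reads per library were between 21833839 and 28519159. OE-CTD 4 and OE-WD 4 stood apart from the other libraries. Their TMM scaling factors were 0.888 and 0.899, the lowest of the 14, and genes of the mitochondrial DNA took 14.9% and 14.5% of their counts, the highest shares. For several results a value with both of these libraries left out is also given, an alternative chosen after the data were seen. The markers of skeletal muscle were detected in full (6 of 6 genes tested, led by Acta1 at a mean of 42920 CPM), and 7 of 7 genes were tested for fast fibres, led by Myh4, and for slow fibres, led by Myh7. Of the fast fibre genes, Tnnc2 was barely detected, between 0.255 CPM in OE-WD 3 and 1.503 CPM in CT-CTD 1. Tnni2 of the same list had between 4926 CPM in OE-WD 3 and 7512 CPM in CT-WD 2. Why so few reads were counted for Tnnc2 was not tested. Of the heart muscle list, 2 of 6 genes were tested. In bulk tissue, fewer cells of a type and less RNA per cell cannot be told apart.

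Compared per gene length, as FPKM over all 14 libraries, Atp2a1, the calcium pump of fast fibres, had the highest level of the 10 genes (9646 ± 953, SD). Casq1, the main calsequestrin of skeletal muscle, followed at 1005 ± 127 FPKM. Jph2 (269 ± 50.3 FPKM) and Ryr1 (252 ± 42.8 FPKM) came next, and their ranges overlapped, with Jph2 above Ryr1 in 10 of 14 libraries. Jph1 (99.6 ± 10.1 FPKM), Trdn (88.9 ± 10.5 FPKM) and Stac3 (87.0 ± 5.03 FPKM) formed a group without a clear order, since Jph1 was above Trdn in 11 libraries and Trdn above Stac3 in 7. Stim1 had 28.9 ± 1.63 FPKM, Casq2 14.9 ± 2.80 FPKM and Sln 7.16 ± 2.47 FPKM. The ranges of Casq2 and Sln overlapped, but Casq2 was the higher in each of the 14 libraries. Atp2a1 alone took between 2.70% and 3.27% of the counted reads of a library.

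By edgeR's quasi-likelihood test with Benjamini-Hochberg adjustment over all 15458 genes, 0 of the 10 genes passed an adjusted p under 0.05 with a fold change over 1.5 in any of the 5 planned comparisons. DESeq2 and limma also gave 0 in each, and at an unadjusted p under 0.05 DESeq2 gave 0, 2, 3, 3 and 0 genes in the order below. The share of all genes tested that passed was 0% for CT-WD against CT-CTD, 0.00647% for OE-WD against OE-CTD, 0.563% for OE-WD against CT-WD, 1.91% for OE-CTD against CT-CTD, while the interaction of diet and genotype had 0%. At an unadjusted p under 0.05, 0 of 10 genes passed between CT-WD and CT-CTD, where 7.28% of all genes did. Between OE-WD and OE-CTD 2 of 10 passed (Casq2 and Sln, both lower on WD), with 4.2% of all genes. Between OE-WD and CT-WD 3 of 10 passed (Casq2 and Jph2 higher, Trdn lower), with 16.9% of all genes. Between OE-CTD and CT-CTD 3 of 10 passed (Casq2 and Sln higher, Trdn lower), with 15.9% of all genes. In the interaction 0 of 10 passed, with 5.92% of all genes. The groups did not overlap for 0 of 10 genes between CT-WD and CT-CTD (9.63% of all genes), for 2 between OE-WD and OE-CTD (4.08%), for 4 between OE-WD and CT-WD (11.6%) and for 3 between OE-CTD and CT-CTD (15.5%). The median log2 fold change of the 10 genes was -0.03, 0.05, 0.11 and 0.03 in these comparisons, beside 0.01, 0.00, 0.01 and -0.00 over all genes tested. The count between CT-WD and CT-CTD was 2 without CT-CTD 2 (Casq2 and Jph1) and 1 without CT-WD 1 (Jph1), and that of the interaction was 1 without OE-CTD 4 (Jph2). The count between OE-WD and OE-CTD was 0 without OE-CTD 2, OE-CTD 3 or OE-WD 3, and 1 without CT-CTD 3, CT-WD 2, OE-CTD 1 or OE-WD 1, 2 or 4. For these fits without 1 library the share of all genes is not given here. Without both libraries numbered 4 the counts were 0, 1 (Casq2), 3, 4 (Ryr1 beside the 3 named above) and 1 (Jph2) in the same order of comparisons, where 8.6%, 4.53%, 17.6%, 19.4% and 7.4% of the 15356 genes tested in those 12 libraries passed. The diet comparisons and the genotype comparisons share libraries, so their values are set side by side and were not correlated.

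**Figure D1:**
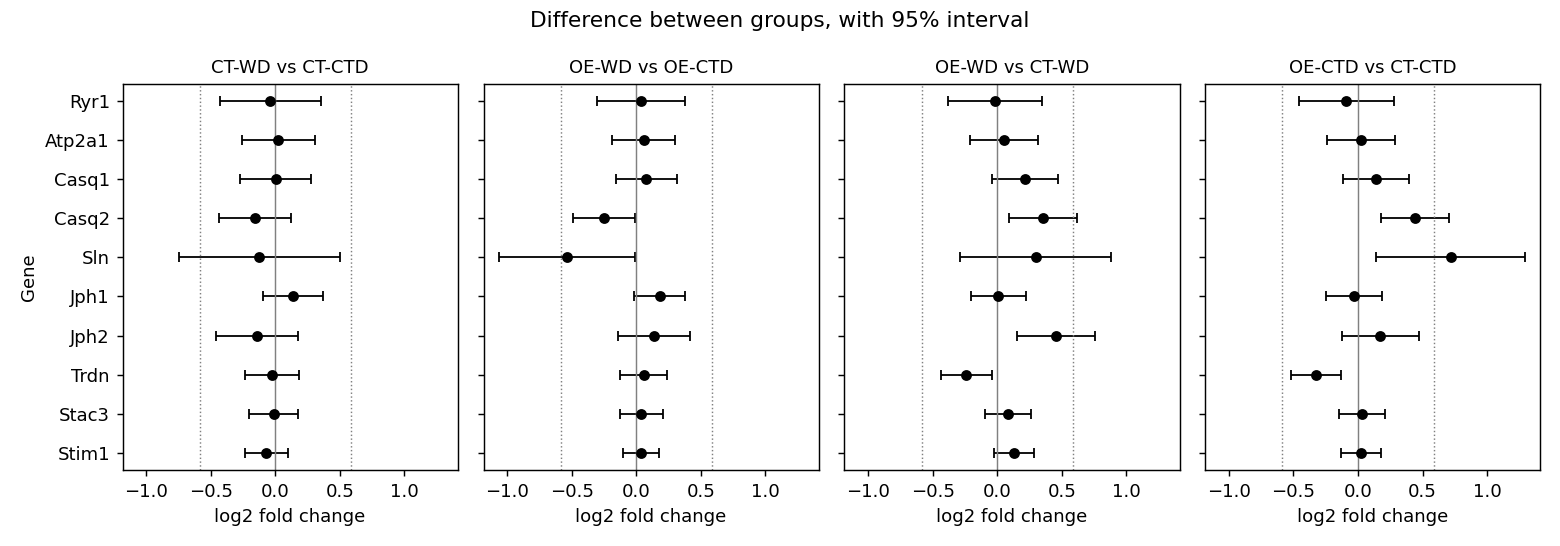
Log2 fold change of each of the 10 genes in the 4 comparisons of groups (points) with its 95% interval from edgeR's test (bars), dotted lines marking a 1.5-fold change. No interval excludes 0 between CT-WD and CT-CTD, and Casq2 and Trdn lie on opposite sides of 0 in both comparisons of EC-Myc OE with CT.

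Ryr1 (chromosome 7 of GRCm38, 29003344 to 29125179, minus strand), the calcium release channel itself, had 4985, 5500 and 5088 TMM-normalized CPM across CT-CTD 1 to 3, beside 4487, 5410 and 5283 CPM across CT-WD 1 to 3. It had 4429, 4298, 4108 and 6682 CPM across OE-CTD 1 to 4, beside 4480, 4436, 4530 and 6577 CPM across OE-WD 1 to 4. Libraries 4 of both EC-Myc OE groups were the highest of all 14, while 5 of the other 6 EC-Myc OE libraries were below all CT libraries and OE-WD 3 was above CT-WD 1 only. The log2 fold change was -0.09 (95% interval -0.46 to 0.28, edgeR adjusted p = 0.860) between OE-CTD and CT-CTD and -0.02 (-0.38 to 0.35, adjusted p = 0.976) for OE-WD against CT-WD. Without both libraries numbered 4 these were -0.28 (edgeR adjusted p = 0.0766) and -0.18 (adjusted p = 0.287). The log2 fold change on WD was -0.04 in CT and 0.04 in EC-Myc OE.

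Stac3, an adaptor that couples the voltage sensor to the release channel, ranged from 177 CPM in OE-CTD 4 to 219 CPM in OE-WD 2. Its largest log2 fold change in a comparison of groups was 0.08 (95% interval -0.10 to 0.26), between OE-WD and CT-WD. Libraries 4 of the EC-Myc OE groups were the lowest of all 14 for Stac3, while the other EC-Myc OE libraries were all above CT. Without both libraries numbered 4 the log2 fold change of Stac3 was 0.09 on control diet (edgeR adjusted p = 0.479) and 0.13 on WD (adjusted p = 0.316).

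Trdn (chromosome 10, 33080554 to 33476709, plus strand), which anchors calsequestrin to the release channel, had 814, 898 and 849 CPM across CT-CTD 1 to 3, beside 807, 898 and 809 CPM across CT-WD 1 to 3. It had 687, 685, 713 and 644 CPM across OE-CTD 1 to 4, beside 786, 728, 721 and 606 CPM across OE-WD 1 to 4. All 8 EC-Myc OE libraries were below all 6 CT libraries, a separation found in 1.83% of all genes tested and in 1 of the 10 genes. Trdn had a log2 fold change of -0.32 (95% interval -0.52 to -0.13, edgeR adjusted p = 0.0791) between OE-CTD and CT-CTD. Between OE-WD and CT-WD it was -0.24 (-0.43 to -0.04, edgeR adjusted p = 0.211). This difference passed the unadjusted threshold, but not without CT-WD 2 (log2 fold change -0.19) or without OE-WD 4 (-0.17), nor with only these 2 groups in the model (edgeR adjusted p = 0.368) or with the replicate block (edgeR adjusted p = 0.43). Neither passed the adjusted threshold by edgeR's test of all 14 libraries. On control diet the adjusted p was 0.011 with DESeq2 and 0.0415 without OE-WD 4 (edgeR), and at most 0.287 over 24 alternatives (edgeR, DESeq2 and limma). Without both libraries numbered 4 the log2 fold change was -0.30 on control diet (edgeR adjusted p = 0.0424) and -0.17 on WD (adjusted p = 0.248).

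Casq2 (chromosome 3, 102086415 to 102146514, plus strand), the calsequestrin of heart and slow fibres, had 37.0, 25.7 and 37.2 CPM across CT-CTD 1 to 3, beside 31.5, 30.1 and 27.8 CPM across CT-WD 1 to 3. It had 42.2, 44.8, 48.9 and 44.8 CPM across OE-CTD 1 to 4, beside 40.0, 38.8, 32.0 and 41.5 CPM across OE-WD 1 to 4. Each OE-CTD library was above each CT library, whereas OE-WD 3 lay below CT-CTD 1 and 3. For Casq2 the log2 fold change was 0.44 (95% interval 0.18 to 0.70, edgeR adjusted p = 0.0753) between OE-CTD and CT-CTD. Without 1 library it was between 0.28 and 0.53. The adjusted p on control diet was 0.0258 with DESeq2 and 0.029 with no low-count filter (edgeR). Its highest value over 24 alternatives (edgeR, DESeq2 and limma) was 0.298. Between OE-WD and CT-WD the log2 fold change was 0.35 (0.09 to 0.62, edgeR adjusted p = 0.169). On WD it was -0.25 in EC-Myc OE (edgeR adjusted p = 1) and -0.16 in CT (edgeR adjusted p = 0.877), and the interaction was -0.09 (edgeR adjusted p = 0.968). Without 1 library the log2 fold change on WD in CT was between -0.32 and -0.07. The lower level in OE-WD than in OE-CTD did not pass the unadjusted threshold without any one of CT-WD 2, OE-CTD 2, 3 or 4, or OE-WD 2 or 3, the log2 fold change nearest to 0 being -0.17 without OE-WD 3.

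Casq1 ranged from 1475 CPM in CT-CTD 1 to 2265 CPM in OE-WD 4, and its log2 fold change was 0.14 (edgeR adjusted p = 0.632) and 0.22 (edgeR adjusted p = 0.386) between EC-Myc OE and CT on control diet and on WD. Without 1 library these were between 0.06 and 0.28 and between 0.13 and 0.31. Casq2 made up 1.45 ± 0.462% (SD, n = 3) of the summed calsequestrin FPKM in CT-CTD, 1.27 ± 0.139% (n = 3) in CT-WD, 1.73 ± 0.131% (n = 4) in OE-CTD and 1.39 ± 0.151% (n = 4) in OE-WD. The difference between OE-CTD and CT-CTD was 0.275 percentage points, and 0.00955 without CT-CTD 2. Between CT-WD and CT-CTD it was -0.187, and -0.0340 and -0.452 without CT-CTD 1 and 2. The mean share was lower in OE-WD than in OE-CTD, but this did not pass an exact two-sided permutation test (p = 0.0571, adjusted over 12 comparisons of shares to 0.229). An exact test of 4 libraries against 3 can give no p under 0.0571, of 3 against 3 none under 0.1 and of 4 against 4 none under 0.0286.

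Jph2, a junctophilin, had 1002, 1061 and 827 CPM across CT-CTD 1 to 3, beside 904, 869 and 845 CPM across CT-WD 1 to 3. It had 988, 1022, 958 and 1376 CPM across OE-CTD 1 to 4, beside 1044, 1173, 1099 and 1465 CPM across OE-WD 1 to 4. All OE-WD libraries were above all CT-WD libraries, while OE-CTD and CT-CTD overlapped, and libraries 4 were again the highest. Jph2 had a log2 fold change of 0.45 (95% interval 0.15 to 0.76, edgeR adjusted p = 0.13) for OE-WD against CT-WD and 0.17 (edgeR adjusted p = 0.612) between OE-CTD and CT-CTD. Without both libraries numbered 4 these were 0.34 (edgeR adjusted p = 0.109) and 0.04 (adjusted p = 0.870). With DESeq2 and with no low-count filter the adjusted p on WD was 0.0494 and 0.0408, still under a 1.5-fold change. It reached 0.389 over the 24 alternatives (edgeR, DESeq2 and limma). The interaction was 0.28 (edgeR adjusted p = 0.893), and a difference between the diets in the effect of genotype is not shown by all 14 libraries. Jph1, the other junctophilin, ranged from 387 to 527 CPM. It had 422, 426, 419 and 435 CPM across OE-CTD 1 to 4, beside 513, 468, 484 and 466 CPM across OE-WD 1 to 4. These groups did not overlap, but the log2 fold change of 0.18 (95% interval -0.02 to 0.38) did not pass (edgeR adjusted p = 1). Jph2 made up 68.2 ± 3.64% of the summed junctophilin FPKM in CT-WD (n = 3) and 74.2 ± 3.47% in OE-WD (n = 4), with an exact permutation p of 0.114, adjusted to 0.343.

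Atp2a1, which returns calcium to the store in fast fibres, had between 28040 CPM in OE-CTD 3 and 36410 CPM in OE-WD 4, and its log2 fold change was between 0.02 and 0.06 in the 4 comparisons of groups. OE-CTD 4 (36090 CPM) and OE-WD 4 were above all other libraries. The direction of these differences turned in some of the alternative settings, so none is read as a direction. Atp2a2, the pump of slow fibres and heart, named from the list of pathway genes, had 1468, 1110 and 1507 CPM across CT-CTD 1 to 3, beside 1411, 1172 and 1306 CPM across CT-WD 1 to 3. It had 1746, 1810, 1618 and 1942 CPM across OE-CTD 1 to 4, beside 1832, 1835, 1632 and 1748 CPM across OE-WD 1 to 4. All 8 EC-Myc OE libraries were above all 6 CT libraries. The log2 fold change was 0.39 (SE 0.113, edgeR adjusted p = 0.0881) on control diet and 0.44 (SE 0.113, edgeR adjusted p = 0.0786) on WD. With DESeq2 the adjusted p was 0.019 and 0.0079, and on WD it was 0.0279 with no low-count filter and 0.022 without CT-WD 1 (edgeR). Over 24 alternatives (edgeR, DESeq2 and limma) the highest adjusted p was 0.358 on control diet and 0.296 on WD. Atp2a2 made up 2.54 ± 0.442% of the summed FPKM of both pumps in CT-CTD (n = 3) and 3.25 ± 0.214% in OE-CTD (n = 4), and 2.39 ± 0.366% in CT-WD (n = 3) and 3.11 ± 0.349% in OE-WD (n = 4). Both of these comparisons of genotypes had an exact permutation p of 0.0571, the smallest possible, adjusted to 0.229.

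Sln, sarcolipin, a small inhibitor of the pump, was the lowest of the 10 genes. It had 7.75, 6.07 and 7.74 CPM across CT-CTD 1 to 3, beside 5.39, 4.35 and 10.1 CPM across CT-WD 1 to 3. It had 11.9, 15.3, 10.7 and 9.14 CPM across OE-CTD 1 to 4, beside 9.03, 10.9, 6.93 and 5.58 CPM across OE-WD 1 to 4. OE-CTD lay above CT-CTD without overlap, and OE-WD overlapped both OE-CTD and CT-WD. For Sln the log2 fold change was 0.72 (95% interval 0.14 to 1.30, edgeR adjusted p = 0.2) between OE-CTD and CT-CTD. It did not pass the unadjusted threshold without CT-CTD 2 (log2 fold change 0.61) or without OE-CTD 2 (0.56). Between OE-WD and OE-CTD it was -0.54 (-1.06 to -0.01, edgeR adjusted p = 1). That difference did not pass the unadjusted threshold without any one of CT-CTD 3, OE-CTD 1, 2 or 3, or OE-WD 1, 3 or 4, the log2 fold change nearest to 0 being -0.38 without OE-CTD 2. Nor did it pass without both libraries numbered 4 (log2 fold change -0.49). On WD, the log2 fold change of EC-Myc OE against CT was 0.30 and did not pass the unadjusted threshold. It was 0.08 without CT-WD 2, and 0.74 without CT-WD 3, where it passed.

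Stim1, the sensor of store calcium that opens entry channels of the surface membrane, ranged from 246 CPM in CT-WD 1 to 297 CPM in OE-WD 4. OE-WD lay above CT-WD without overlap, with a log2 fold change of 0.13 (95% interval -0.02 to 0.29, edgeR adjusted p = 0.381).

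**Figure D2:**
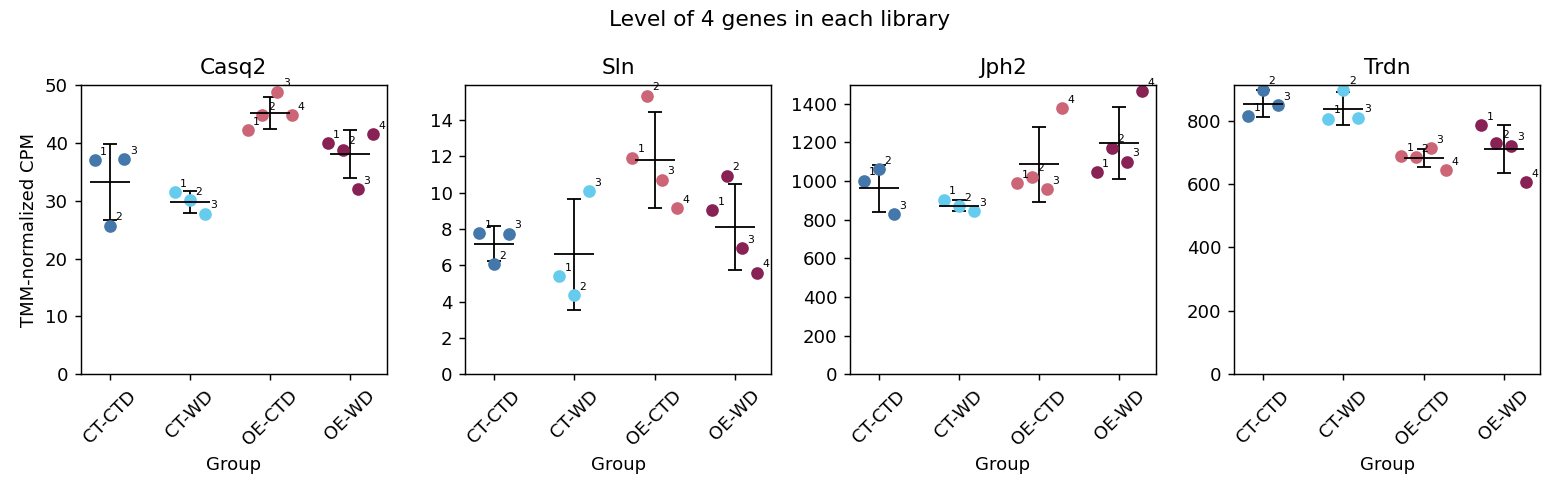
TMM-normalized CPM of Casq2, Sln, Jph2 and Trdn in each library (points, numbered by replicate) of the 4 groups, with the mean (line) and SD (bars). All 8 EC-Myc OE libraries lie below all 6 CT libraries for Trdn, and libraries 4 are the highest of their groups for Jph2.

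After the values of both genotype comparisons had been seen, and with 0 genes called in the planned comparisons, a further comparison was added, the average of the 2 genotype comparisons in the same model. By the rule of an adjusted p under 0.05 and a fold change over 1.5, it also gave 0 of 10 genes, with 3.64% of all genes. At an unadjusted p under 0.05 it gave 4 of 10 (Casq2, Sln and Jph2 higher, Trdn lower), with 23.9% of all genes. At an adjusted p under 0.05 with any fold change, a looser rule also chosen after seeing the values, it gave 2 of 10, with 8.49% of all genes. These were Casq2, with a log2 fold change of 0.40 (95% interval 0.21 to 0.58, edgeR adjusted p = 0.0123), and Trdn, with -0.28 (-0.42 to -0.14, edgeR adjusted p = 0.0158). The replicate numbers, used as a block, join CT and EC-Myc OE libraries by number alone. In that fit the edgeR adjusted p was 0.0534 for Casq2 and 0.0746 for Trdn, so neither passed. Without CT-WD 2 the count was 1, Casq2, and the share of all genes in either fit is not given here. Sln had a log2 fold change of 0.51 in this average. Without CT-WD 3 it passed the rule with a 1.5-fold change (0.73, edgeR adjusted p = 0.0237), and without CT-WD 2 it did not pass the unadjusted threshold (0.40, edgeR adjusted p = 0.267). Without both libraries numbered 4, Ryr1 also passed this looser rule, with a log2 fold change of -0.23 (edgeR adjusted p = 0.0279), so that 3 of 10 genes passed it, with 10.8% of all genes tested in the 12 libraries. At the unadjusted threshold 6 of 10 passed there, Ryr1 and Stac3 beside the 4 above, with 26.6% of all genes.

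Markers of other cell types are given beside these values, as summed levels without a test. The summed level of 7 endothelial genes, led by Cdh5, was 308, 313 and 321 CPM across CT-CTD 1 to 3, then 364, 322 and 327 CPM across CT-WD 1 to 3, 406, 415, 384 and 356 CPM across OE-CTD 1 to 4, and 410, 424, 426 and 410 CPM across OE-WD 1 to 4. The summed level of 5 fibroblast genes, led by Dcn, was 413, 386 and 302 CPM in CT-CTD, 941, 337 and 330 CPM in CT-WD, 887, 1042, 978 and 609 CPM in OE-CTD and 671, 1513, 859 and 718 CPM in OE-WD. For both lists the EC-Myc OE libraries were mostly above CT, with CT-WD 1 the highest CT library. The summed level of 5 tendon genes, led by Fmod, was 165 ± 66.7 CPM (SD) in CT-CTD, 222 ± 220 CPM in CT-WD, 453 ± 129 CPM in OE-CTD and 527 ± 235 CPM in OE-WD. The summed level of 6 macrophage genes, led by Lyz2, had group means of 45.1, 64.2, 81.7 and 73.0 CPM in CT-CTD, CT-WD, OE-CTD and OE-WD. That of 6 adipocyte genes had group means of 306, 266, 261 and 241 CPM, most of it Fabp4 (mean of 216 CPM). Taken gene by gene, 6 of 6 adipocyte genes were lower for CT-WD against CT-CTD (median log2 fold change -0.98) and 4 of 6 for OE-WD against OE-CTD (median -0.09). Between the genotypes 5 of 6 were higher in EC-Myc OE on WD (median 0.65) and 5 of 6 lower on control diet (median -0.19). Lep, an adipocyte gene, had 1.98, 8.16 and 1.55 CPM in CT-CTD, 2.78, 0.870 and 0.356 CPM in CT-WD, 15.95, 9.86, 25.97 and 7.96 CPM in OE-CTD and 3.07, 12.45, 3.96 and 13.3 CPM in OE-WD. Its libraries overlapped between the diets within each genotype. All OE-WD libraries were above all CT-WD libraries for Lep, while OE-CTD and CT-CTD overlapped. Lep was the only adipocyte gene that was higher in EC-Myc OE on control diet. The summed level of 5 epidermis genes, led by Krt5, was 38.1, 4.60 and 11.2 CPM in CT-CTD, 89.5, 8.55 and 10.3 CPM in CT-WD, 21.3, 35.7, 35.5 and 2.45 CPM in OE-CTD and 14.8, 80.0, 120.0 and 35.8 CPM in OE-WD. CT-CTD 1 and CT-WD 1 were far above the rest of their groups, and the EC-Myc OE libraries also differed widely within their groups. For the slow fibre genes the means were 4307, 4503, 4992 and 4723 CPM. On WD 1 of these 7 genes was higher in EC-Myc OE than in CT and 6 were lower, with a median log2 fold change of -0.04, the higher one being Myh7. On control diet 7 of 7 were higher, with a median of 0.21. For the fast fibre genes the means were 89140, 92920, 81200 and 86750 CPM. OE-CTD 4 (102500 CPM) and OE-WD 4 (107900 CPM) were far above the rest of their groups in the fast fibre genes. No gene of these lists was at 0 in all libraries. The part of these cells, and of the muscle sampled, in the differences of Trdn, Casq2, Jph2, Sln and Atp2a2 was not tested.

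Each of the 10 genes was set against the mean log2 CPM of 7 slow fibre genes and of 7 fast fibre genes over the 14 libraries, in 20 relations. Ryr1 rose with the fast fibre list (Pearson r = 0.846, permutation p = 0.0001, adjusted p = 0.002, Spearman rho = 0.846, permutation p = 0.00032, adjusted p = 0.0064). Without the 2 libraries farthest from the median of the list (OE-WD 3 and 4) r was 0.839, without both libraries numbered 4 it was 0.794 (permutation p = 0.00306, adjusted p = 0.0306, Spearman rho = 0.762, permutation p = 0.00555, adjusted p = 0.0555), and on deviations from group means it was 0.854. Stac3 went the opposite way (Pearson r = -0.735, permutation p = 0.00289, adjusted p = 0.0289, Spearman rho = -0.758, permutation p = 0.00242, adjusted p = 0.0242). Without the 2 farthest libraries r was -0.653 (permutation p = 0.0197, adjusted p = 0.197) and without both libraries numbered 4 it was -0.641 (permutation p = 0.026, adjusted p = 0.173), so the relation of Stac3 no longer passed although r changed little. On deviations from group means r was -0.747 (permutation p = 0.00296, adjusted p = 0.0197) and Spearman rho -0.415 (permutation p = 0.141, adjusted p = 0.346). The low values of Tnnc2 spread widely on the log scale and weigh in the fast fibre mean, so the relations were computed again without it, an alternative chosen after the relations were seen. For Ryr1, r was then 0.924 (permutation p = 1e-05, the smallest these permutations can give, adjusted p = 0.0002, Spearman rho = 0.776, permutation p = 0.00178, adjusted p = 0.0356), and 0.830 without the 2 libraries then farthest, OE-CTD 4 and OE-WD 4. For Stac3 it was -0.685 (permutation p = 0.00761, adjusted p = 0.0507, Spearman rho = -0.692, permutation p = 0.00794, adjusted p = 0.0794), which did not pass, and -0.371 without OE-CTD 4 and OE-WD 4. For the slow fibre list 0 of the 10 relations had an adjusted p under 0.05, and the highest r was that of Casq2 (Pearson r = 0.572, permutation p = 0.0328, adjusted p = 0.164, Spearman rho = 0.525, permutation p = 0.0571, adjusted p = 0.305), which fell to 0.239 without CT-CTD 2 and CT-WD 1.

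**Figure D3:**
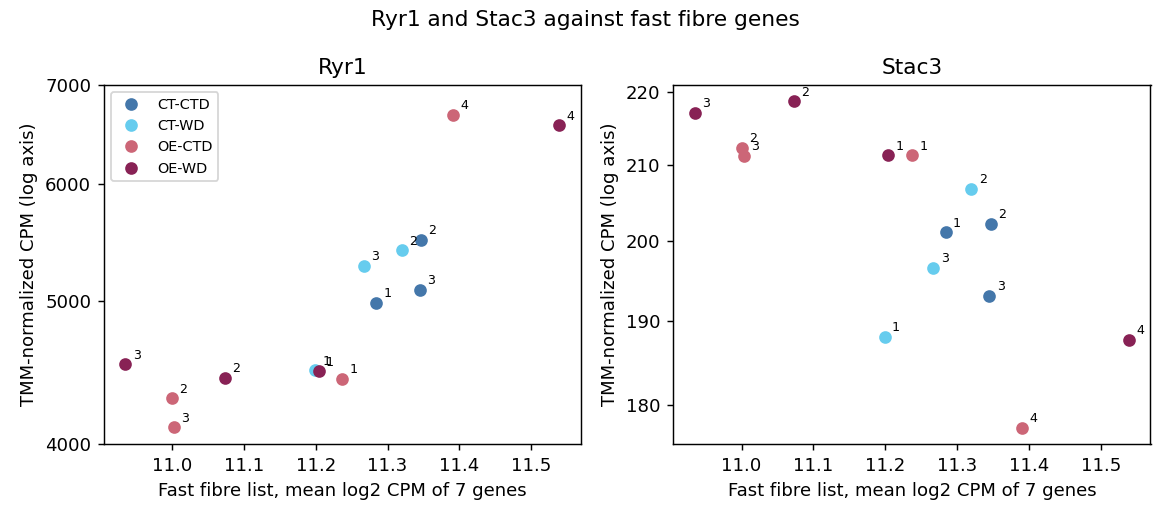
TMM-normalized CPM of Ryr1 and Stac3 (log axes) against the mean log2 CPM of 7 fast fibre genes in each library, numbered by replicate and coloured by group. Ryr1 is higher and Stac3 lower in libraries with a higher fast fibre mean, and libraries 4 of the EC-Myc OE groups are the highest of all for Ryr1 and the lowest for Stac3.

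The genes whose log2 CPM followed each of the 10 most closely over the 14 libraries were, as a description, Sptb, Hif1an and Ubr4 for Ryr1 (r = 0.979, 0.975 and 0.970) and Epb41, Rnf123 and Acta1 for Atp2a1 (0.946, 0.935 and 0.922). They were Rps6ka2 and Ltbp3 for Jph2 (r = 0.962 and 0.925) and Rhobtb3, Mff and Vapa for Trdn (0.923, 0.919 and 0.915). For Casq2 they were H19, Ephx2 and Kctd11 (r = 0.865, 0.859 and 0.858), and for Casq1 Kbtbd12, Rpn2 and Zfp768 (0.875, 0.863 and 0.863). For Stim1 they were Mapt, Smg5 and D17Wsu92e (r = 0.908, 0.906 and 0.895), and for Stac3 Gjc3, Nek8 and Gtpbp2 (0.893, 0.891 and 0.873). For Jph1 they were Ndel1, Pde4b and Ddi2 (r = 0.864, 0.841 and 0.840), and for Sln Pdlim1, Kazn and P3h2 (0.849, 0.845 and 0.835). All these libraries share group structure and scaling, and the values carry no test.

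Of 51 other genes of the pathway, 47 were tested. At an unadjusted p under 0.05, 0 were higher and 2 lower between CT-WD and CT-CTD, 1 higher and 0 lower between OE-WD and OE-CTD, 2 higher and 5 lower between OE-WD and CT-WD, and 4 higher and 7 lower between OE-CTD and CT-CTD. These are 2, 1, 7 and 11 of 47 genes, beside the 7.28%, 4.2%, 16.9% and 15.9% of all genes given above, and are not read as a result about the pathway. Their median log2 fold change was -0.02, -0.01, -0.00 and -0.00 in these comparisons. By the adjusted rule with a 1.5-fold change 1 gene passed in each genotype comparison, Mettl21c, a lysine methyltransferase of muscle that had been placed among the partners of the release channel. It had 66.4, 92.7 and 56.4 CPM across CT-CTD 1 to 3, beside 61.0, 41.4 and 54.6 CPM across CT-WD 1 to 3. It had 40.5, 27.0, 30.3 and 33.8 CPM across OE-CTD 1 to 4, beside 27.9, 30.0, 30.2 and 26.6 CPM across OE-WD 1 to 4. All EC-Myc OE libraries were below all CT libraries. Mettl21c fell by 1.13 on the log2 scale between OE-CTD and CT-CTD (SE 0.166, edgeR adjusted p = 0.00575), and by 0.87 between OE-WD and CT-WD (SE 0.167, edgeR adjusted p = 0.0322). On WD the adjusted p was 0.138 without CT-WD 3, 0.0965 without OE-WD 2, 0.0769 without OE-WD 3, 0.0883 without OE-WD 4 and 0.0877 without both libraries numbered 4 (edgeR). With the replicate block the adjusted p of Mettl21c was 0.0804 on control diet and 0.263 on WD (edgeR), so neither difference passed in that fit. That block joins CT and EC-Myc OE libraries by number alone, which no label gives as a pair. In the genotype average, added after values were seen, 2 of 47 genes passed that rule, with 3.64% of all genes, and 5 of 47 passed at any fold change, with 8.49%. Past 1.5-fold were Mettl21c (log2 fold change -0.997, edgeR adjusted p = 0.000374) and Ryr3, a release channel with between 12 and 104 counts per library (-1.47, edgeR adjusted p = 0.02). The adjusted p of Ryr3 was 0.0689 without CT-CTD 3 and 0.0764 without CT-WD 3 (edgeR). Under 1.5-fold were Atp2a2 (0.41, adjusted p = 0.00631), Stim2 (-0.41, adjusted p = 0.00786) and Calu (0.22, edgeR adjusted p = 0.0187). With the replicate block the adjusted p of these 3 was 0.0544, 0.0784 and 0.0663, and that of Calu was 0.061 without CT-WD 2 and 0.0543 with no low-count filter (edgeR).

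Among the release channels, Ryr3 was at 0.0838 ± 0.0673 FPKM (SD), far below Ryr1, with a log2 fold change of -1.58 (SE 0.497, edgeR adjusted p = 0.114) on control diet and -1.36 (SE 0.513, edgeR adjusted p = 0.200) on WD for EC-Myc OE against CT. On WD it was -0.57 without CT-WD 3, and on control diet -1.13 without CT-CTD 3, and neither then passed the unadjusted threshold. On control diet its adjusted p was 0.0459 without CT-CTD 1 and 0.0174 with no low-count filter (edgeR), and 0.0367 with DESeq2. Jsrp1, a triad protein that binds the voltage sensor, had -0.24 on WD (edgeR adjusted p = 0.288). Cacng1, a subunit of the voltage sensor, had -0.26 on control diet (edgeR adjusted p = 0.292). In store-operated entry, Stim2, the paralog of Stim1, fell by 0.54 on the log2 scale between OE-CTD and CT-CTD (SE 0.115, edgeR adjusted p = 0.0246), a change under 1.5-fold. That adjusted p was 0.0611 and 0.131 without CT-CTD 2 and 3 and 0.0510, 0.0567 and 0.0795 without OE-CTD 1, 2 and 3 (edgeR). With the replicate block it was 0.135 (edgeR). Stim2 had a log2 fold change of 0.30 between OE-WD and OE-CTD (edgeR adjusted p = 1) and of -0.27 between OE-WD and CT-WD (edgeR adjusted p = 0.246, or 0.0142 without CT-WD 1). Without 1 library the value of Stim2 between OE-WD and CT-WD was between -0.43 and -0.17. It passed the unadjusted threshold in 15 of 24 alternatives. Saraf, a regulator of store-operated entry, had -0.28 on WD (edgeR adjusted p = 0.277). Among the regulators of the pump, Pln, phospholamban, had a log2 fold change of 0.82 (edgeR adjusted p = 0.274) and Mrln, myoregulin, of -0.50 (edgeR adjusted p = 0.153) between OE-CTD and CT-CTD. Calu, a calcium-binding protein of the reticulum, had 0.20 on control diet and 0.24 on WD (edgeR adjusted p = 0.193 and 0.129, the latter 0.0474 with DESeq2). Tmem38b, a cation channel of the reticulum, had -0.29 between CT-WD and CT-CTD (edgeR adjusted p = 0.561) and -0.25 between OE-CTD and CT-CTD (edgeR adjusted p = 0.181). Of the extrusion genes, Slc8a3 had 0.41 and Atp2b1 -0.22 between OE-CTD and CT-CTD (edgeR adjusted p = 0.192 and 0.306).

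The positions of all 10 genes were those of the GENCODE M21 annotation of GRCm38. Strand use in counting is not given in the sources used here, so reads of genes on opposite strands cannot be told apart. Atp2a1 shares exon sequence with Rabep2 on the other strand, which had a mean of 1290 counts, and Casq1 with Gm17224, which had a mean of 29 counts. The promoter table of RefSeq (GRCm38.p6) held 6 of the 10 genes, in 7 entries of 250 bases before to 50 after the start. On both strands, CACGTG, a letter sequence that Myc with Max can bind, was in 0 of the 7 entries and in 7.15% of all 32851 promoters, and CAGCTG was in 4 of 7 and in 16.3%. The 2 entries of Jph2 overlap and both hold CAGCTG, so by gene it was in 3 of 6 (Atp2a1, Casq1 and Jph2). The MEF2 consensus was in 1 of 7 and in 3.19%, and TATAAA in 0 of 7 and in 13.6%. A match describes the letters and not a binding site. The promoters of both calsequestrin genes are shown because the pair differs in level, with the matches of these motifs in capitals. Casq1 is at chr1:172219846-172220145 on the minus strand, with CAGCTG, and Casq2 at chr3:102086165-102086464 on the plus strand, with the MEF2 consensus.
Casq1: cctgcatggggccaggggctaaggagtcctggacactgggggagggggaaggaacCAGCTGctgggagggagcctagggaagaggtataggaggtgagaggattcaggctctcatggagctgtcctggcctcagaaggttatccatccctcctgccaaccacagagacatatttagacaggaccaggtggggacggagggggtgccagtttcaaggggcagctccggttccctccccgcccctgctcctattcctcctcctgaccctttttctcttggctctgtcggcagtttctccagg
Casq2: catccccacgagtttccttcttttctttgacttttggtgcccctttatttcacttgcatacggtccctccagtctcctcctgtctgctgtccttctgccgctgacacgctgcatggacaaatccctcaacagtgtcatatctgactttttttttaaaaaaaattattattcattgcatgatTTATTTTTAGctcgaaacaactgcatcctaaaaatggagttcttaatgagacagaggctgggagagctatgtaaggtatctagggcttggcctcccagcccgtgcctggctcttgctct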

How the data were processed

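RNA of skeletal muscle was selected with poly-T beads and sequenced by the authors in 14 libraries, grouped here by their labels. The authors deposited counts, the reads assigned to each gene, without normalization. FPKM values, also deposited, are counts divided by gene length and by a library total that was between 79.9% and 98.0% of the summed counts. The gene length in bases is another column the authors deposited. The submitters' processing notes list HISAT2 2.0.5, featureCounts 1.5.0-p3 and mm10, without their roles. Counts were tested in R 4.3.3 with edgeR 4.0.16 (filterByExpr, TMM, quasi-likelihood test, 1 model of 4 group means, all 14 libraries, 15458 genes, Benjamini-Hochberg adjustment within each comparison). Intervals of 95% used the t quantile of that test's degrees of freedom. Log2 CPM used a prior count of 2. Alternatives were DESeq2 1.42.0, limma 3.58.1 on log2(FPKM + 1) and log2(FPKM + 0.1) for genes with a mean FPKM of at least 0.1, other scaling factors and filters, fits of 2 groups, a replicate block and leaving out each library. The scripts were tested on simulated data. Shares and relations used exact tests or 100000 permutations (SciPy 1.17.1).

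The 10 genes, the pathway and marker lists and the tests were chosen with earlier results of these data known. The planned comparisons numbered 5, and the genotype average with its looser rule, the setting without both libraries numbered 4, and the fast fibre list without Tnnc2, were added after values were seen. Named pathway genes were Atp2a2, Ryr3 and Pln, and up to 4 per role with the smallest unadjusted p under 0.05 in a comparison of groups. The 3 genes most alike were taken from those with a mean of at least 1 CPM. A single one of these genes and a marker list are not reported here. Counted reads were between 21833839 and 28519159 per library, and the biological coefficient of variation was 17%. No replicate pair agreed within sampling noise (chi-square per degree of freedom between 7.81 and 50.8). It was between 7.81 and 10.6 among the 3 OE-CTD libraries that share a number in their descriptions and between 37.0 and 43.0 for OE-CTD 4 against these. Among the 4 OE-WD libraries, which all share a number, it was between 8.52 and 15.2 for OE-WD 1 to 3 and between 38.9 and 42.8 for OE-WD 4 against these. Between CT libraries of a group, whose numbers differ, it was between 16.8 and 50.8. Same-numbered libraries of CT-WD and CT-CTD had r = 0.385, 0.123 and 0.203 across genes for their deviations from group means. Deviations within a group cancel out, so these values are not independent of each other. Pairs with unlike numbers were not compared and no label pairs the libraries, so this check cannot decide whether the numbers mark pairs. The values given come from the unpaired model, and the fit with the replicate block is an alternative. In the other comparisons not every pair was over 0.1. Between OE-WD and CT-WD r was -0.23, -0.158 and -0.0647. Between OE-CTD and CT-CTD it was 0.0465, -0.113 and -0.122. In these genotype comparisons the block thus joins libraries by number alone.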

Additional observations from a re-analysis of the deposited data

Results flagged for a closer look

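In groups of 4 libraries, a library was noted when its gap to the nearest other library, divided by the range of the group, was above the 95% critical value of Dixon's test, which chance gives in about 1 of 20 groups. Of 20 combinations of gene and group, 5 were noted, all of them in libraries numbered 4. The ratio was 0.875 for Ryr1 in OE-CTD 4 (6682 CPM, the highest) and 0.956 for Ryr1 in OE-WD 4 (6577 CPM, the highest). It was 0.913 for Atp2a1 (36090 CPM, the highest), 0.847 for Jph2 (1376 CPM, the highest) and 0.968 for Stac3 (177 CPM, the lowest), each in OE-CTD 4. The 10 genes are not independent of each other within a library, and the cause was not tested.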

How the results depend on the processing

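Of the results on comparisons, counts and relations, 515 values under the alternatives were taken as kept, 22 counts moved, 24 reversed, 5 became stronger and 3 weaker. A count was taken as kept if it was equal or within a ratio of 1.5, so small changes of a count are among these. Other values were taken as kept if they held their direction and side of the threshold. For part of the single genes and comparisons, 421 values kept both and 48 no longer passed. Elsewhere single genes turned direction, such as Ryr1 between OE-WD and CT-WD in 5 of 24 alternatives. Jph1 turned in 6 of 23 in the genotype average. The cause was not tested. Between OE-WD and OE-CTD the 2 genes at an unadjusted p became 1 with limma on log2(FPKM + 1), 0 on log2(FPKM + 0.1), 4 with the replicate block, 1 without both libraries numbered 4 (added after seeing the data), and 0 to 3 without 1 library. The 0 of CT-WD against CT-CTD became 0 to 2 without 1 library, and the 0 of the interaction 1 with the replicate block, 1 without both libraries numbered 4, and 0 to 1 without 1 library. For the genotype average, the 0 at 1.5-fold became 0 to 1 without 1 library, and the 2 at any fold became 4 with no low-count filter, 0 with the replicate block, and 1 to 3 without 1 library. Among these fits, a share of all genes is given only for that without both libraries numbered 4. The other counts are not read as results about the 10 genes. With the replicate block the adjusted p of Mettl21c was 0.0804 on control diet and 0.263 on WD, and that of Stim2 0.135 on control diet (edgeR). Only between CT-WD and CT-CTD did all same-numbered pairs have r over 0.1, which does not settle a pairing, and there the block gave 0 genes. The difference in share without 1 library was -0.373 to 0.0680 percentage points for Atp2a2 between CT-WD and CT-CTD, -0.273 to 0.00193 between OE-WD and OE-CTD, and -2.07 to 0.812 for Jph2 between OE-WD and OE-CTD. Relations to the slow fibre list turned without both libraries numbered 4 for Ryr1 (r = -0.206), Atp2a1 (-0.312), Casq1 (-0.211), Jph1 (0.0313), Jph2 (-0.382) and Stac3 (0.149), on deviations from group means for Casq1 (-0.144), Jph1 (0.107) and Jph2 (-0.101), and without the 2 farthest libraries for Jph1 (0.0655) and Jph2 (-0.00273). Relations to the fast fibre list turned without both libraries numbered 4 for Casq1 (r = -0.312), Jph2 (-0.533) and Stim1 (-0.147), and passed for Trdn (0.804) but not for Stac3 (-0.641). On deviations they turned for Casq2 (r = 0.198) and Trdn (-0.546) and passed by Pearson r only for Atp2a1 (0.765), Jph2 (0.670) and Stim1 (0.669). The adjusted permutation p of Spearman rho was 0.163, 0.346 and 0.242 for these 3 genes. Without the 2 farthest libraries they turned for Casq1 (r = -0.0483) and Jph2 (-0.00734), and Stac3 (-0.653) no longer passed. Without Tnnc2 in the fast fibre list (added after seeing the data) the relation turned for Trdn (r = -0.0969), passed for Atp2a1 (0.716) and no longer passed for Stac3 (-0.685). For Atp2a1 the adjusted permutation p of Spearman rho was 0.52 there. With OE-CTD 4 and OE-WD 4, then the farthest libraries, also left out, r was 0.769 for Trdn (permutation p = 0.0033, adjusted p = 0.033), which passed. For Atp2a1 it was 0.293 (permutation p = 0.359, adjusted p = 0.599), which did not. At a depth of 90 to 465 counts per library, Sln had the widest interval of the 10 genes.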
